A study of Homo sapiens with 6 samples.

Results

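The regions described here are stretches of the genome where lactylated histone H4 was called after added lactate and not without it. They were chosen from the peak lists themselves. Peaks of 4 libraries that shared at least 1 bp were merged, and a region on chromosomes 1 to 22 was kept where both lactate libraries had a peak in it and neither control library had one. Of 70442 merged autosomal regions, 1916 (2.72%) met this rule, and they are called lactate-only regions below. They were short, mostly inside long genes or between genes, and mostly near control peaks. The 7 best by fold lay outside coding genes near LSMEM1, LPIN1 and IWS1 and inside ARAP3, NAV2, ITGB3 and GALNT12. The rule reads the presence of peaks in every library, so fold, width and reads of these peaks are given as a description and were not tested.

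The cells were PLC/PRF/5, an established human hepatocellular carcinoma line, and the antibody was raised against lactylation at lysine 5 of histone H4 (H4K5la). The 2 control libraries (replicates 2 and 3) came from cells labelled control, with no lactate treatment in their labels, and the 2 lactate libraries (replicates 2 and 3) from cells kept in 20 mM lactate, given as lactic acid, for 24 h. All 4 come from this single line, bought from 2 cell banks, with no genetic change named in the labels. The labels do not say whether replicates were separate cultures. The 2 input libraries were not used here. The 2 control lists held 52215 and 52959 peaks, and the 2 lactate lists were shorter, at 37951 and 38402. Read depth can be compared within a treatment only, so the part of depth in the difference between treatments cannot be told apart from the lactate. Coordinates are in hg38.

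Lactylation is the attachment of a lactate-derived group to lysine. On histone tails it sits at lysines that can also carry acetyl groups, and it is removed by histone deacetylases, among others. Hepatocellular carcinoma cells make and export much lactate through glycolysis, so lactate is both a product of these cells and a source of the mark. A peak is a stretch where reads pile up over background beyond the threshold of the authors' peak caller, and a missing peak does not show that the mark was absent.

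The sequence at hand here covered RefSeq promoter windows and miRNAs, and not the lactate-only regions themselves. RefSeq gives promoter windows (250 bases before to 50 after the start, GRCh38.p14) for 15101 autosomal coding genes, and 63 of these windows shared bases with a lactate-only region. Shown are the windows of the genes that follow from ranking the regions at a gene start by fold, where the window and the region overlap, and that of H4C6, which encodes histone H4 and was picked after its values were seen. Each runs 5′ to 3′ on the gene's strand, and capitals mark matches, on either strand, to the TATA box TATAAA, the CCAAT box, the GC box core GGGCGG, the E-box CACGTG and the AP-1 motif TGACTCA.
TDRD15 (chr2:21123718-21124017, plus strand): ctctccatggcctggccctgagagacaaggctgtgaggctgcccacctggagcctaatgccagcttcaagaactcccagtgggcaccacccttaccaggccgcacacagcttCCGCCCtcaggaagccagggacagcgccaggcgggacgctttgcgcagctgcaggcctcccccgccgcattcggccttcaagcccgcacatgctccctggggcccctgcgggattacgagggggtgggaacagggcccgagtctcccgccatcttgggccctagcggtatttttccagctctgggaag
PCDHGC4 (chr5:141484780-141485079, plus strand): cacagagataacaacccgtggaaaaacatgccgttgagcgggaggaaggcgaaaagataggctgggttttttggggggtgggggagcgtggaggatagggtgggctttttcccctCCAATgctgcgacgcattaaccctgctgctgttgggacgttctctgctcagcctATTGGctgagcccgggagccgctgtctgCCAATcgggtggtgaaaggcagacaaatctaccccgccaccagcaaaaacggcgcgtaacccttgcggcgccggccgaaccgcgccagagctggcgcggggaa
C1orf52 (chr1:85259613-85259912, minus strand): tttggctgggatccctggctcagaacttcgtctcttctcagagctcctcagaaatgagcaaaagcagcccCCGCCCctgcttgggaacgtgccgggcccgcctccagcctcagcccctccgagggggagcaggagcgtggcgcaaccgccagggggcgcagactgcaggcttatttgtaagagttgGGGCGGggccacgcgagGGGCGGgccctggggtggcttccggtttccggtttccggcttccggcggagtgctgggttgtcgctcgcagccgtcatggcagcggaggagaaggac
TBRG1 (chr11:124622614-124622913, plus strand): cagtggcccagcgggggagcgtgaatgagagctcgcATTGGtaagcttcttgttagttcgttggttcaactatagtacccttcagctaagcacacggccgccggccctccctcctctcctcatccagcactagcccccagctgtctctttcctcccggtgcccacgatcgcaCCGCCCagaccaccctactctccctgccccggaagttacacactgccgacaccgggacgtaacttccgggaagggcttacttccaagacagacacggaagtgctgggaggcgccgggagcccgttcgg
H4C6 (chr6:26240143-26240442, plus strand): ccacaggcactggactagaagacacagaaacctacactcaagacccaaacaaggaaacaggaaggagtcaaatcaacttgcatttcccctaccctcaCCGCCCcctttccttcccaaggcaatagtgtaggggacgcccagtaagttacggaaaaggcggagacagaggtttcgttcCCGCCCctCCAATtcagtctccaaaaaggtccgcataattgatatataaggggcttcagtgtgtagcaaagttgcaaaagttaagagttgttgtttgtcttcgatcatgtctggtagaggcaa

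The TDRD15 window lay wholly inside its region and held 1 GGGCGG match, read as CCGCCC on the strand shown. The PCDHGC4 window held 3 CCAAT matches, 1 of them as ATTGG, and shared 279 bases with its region. The C1orf52 window held 3 GGGCGG matches and shared 228 bases. TBRG1 shared 61 bases and H4C6 90 bases, in both cases at the downstream end of the window. In both, every marked match lay upstream of the shared bases, outside the region. Motifs and GC content below were counted over whole windows, whatever part the region covered. Over the 63 windows the median GC content was 61.7%, against 63.0% over all 15101 windows, 63.3% over 448 windows under regions with peaks in the control libraries alone and 61.7% over 713 windows under shared regions, which had a peak from each lactate library and from 1 or both control libraries. GGGCGG was present in 65.1% of the 63 windows, 58.9% of all windows, 61.8% of the 448 control windows and 50.2% of those under shared regions. In the same order, CCAAT was present in 42.9%, 36.0%, 34.6% and 34.8%. TATAAA was present in 9.52%, 9.71%, 7.81% and 10.2%, and CACGTG in 9.52%, 8.77%, 10.04% and 7.99%. TGACTCA was present in 1 of the 63 windows (1.59%), and in 3.66%, 1.56% and 3.79% of the other sets. None of the 5 motifs contains another, though neighbouring matches can share end letters. These shares were not tested, and they differ by a few windows in a set of this size.

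A lactate-only region also touched 2 of 1461 autosomal miRNA hairpins in the RefSeq table. Shared regions touched 101, but there were 23647 of them against 1916, with a median width of 880 against 418 bp. The part of set size in these counts was not tested. The mature sequences of the 2 hairpins follow, with the seed (bases 2 to 8) in capitals, since they show that no seed is shared.
hsa-miR-3943 (chr7:43150917-43150939, plus strand): uAGCCCCCaggcuucacuuggcg
hsa-miR-6888-5p (chr2:159186840-159186859, plus strand): aAGGAGAUgcucaggcagau
hsa-miR-6888-3p (chr2:159186881-159186901, plus strand): aUCUGUCUcgauuguuuccag

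The hairpin of MIR3943 lies inside HECW1, a ubiquitin ligase gene, and its region had a fold enrichment of 9.64 in lactate replicate 2 and 9.59 in lactate replicate 3. MIR6888 lies inside TANC1, and there the values were 6.14 and 8.86. The region covered the whole MIR3943 hairpin, from 43150666 to 43151150 of chromosome 7. At MIR6888 it began at 159186874 of chromosome 2, which is past the 5p arm.

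The first question was how strong these regions were in the libraries that carried them. Fold enrichment is the authors' value for the summit of a peak over its local background. Peaks of lactate-only regions had a median fold of 7.73 in lactate replicate 2 and 7.96 in lactate replicate 3. In the same libraries, the peaks of the 23647 shared regions had medians of 7.54 and 7.72. Peaks of 5955 regions found in 1 lactate library alone had medians of 6.29 and 6.48. Lactate-only peaks were thus as high as shared lactate peaks by this measure, and above those seen in a single library.

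The converse regions, 10275 with peaks in both control libraries alone (14.6% of all merged regions), had medians of 6.54 and 6.90 in control replicates 2 and 3. Shared regions had 8.17 and 8.70 in those libraries. By fold, control-only peaks therefore stood below the shared peaks of their own libraries, and lactate-only peaks did not. By median -log10 q both stood below. Lactate-only peaks had 9.85 and 10.8, against 11.3 and 11.8 for shared peaks of the lactate libraries. Control-only peaks had 7.94 and 9.06, against 11.5 and 13.3 for shared peaks of the control libraries. All these statements describe lists chosen by presence of a peak.

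Lactate-only peaks were narrow. Their median width was 380 bp in lactate replicate 2 and 365 bp in lactate replicate 3, against 518 and 503 bp for the shared peaks of these libraries and 353 and 340 bp for peaks of 1 lactate library alone. Widths ran from 314 to 1096 bp and from 304 to 1157 bp, and 6 and 5 peaks reached 1 kb. In 1914 of the 1916 regions (99.9%) each lactate library had a single peak. Together the regions covered 863 kb.

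Reads at the summit, recovered from the authors' fold and p-value, had a median of 19 and 21 at lactate-only peaks and 23 and 26 at shared peaks of the same libraries. The local background was at the lowest value of the library for 42.1% and 42.7% of lactate-only peaks, against 24.97% and 24.99% of shared lactate peaks and 30.6% and 30.5% of control-only peaks. It was 45.1% and 42.8% for peaks of 1 lactate library alone, and 39.7% and 40.1% for lactate peaks of shared regions with 1 control library, so the value is not particular to lactate-only peaks. Lactate-only peaks thus had fewer reads and a low background more often than shared peaks. The smallest number of reads at any called summit was 7 and 8 in the lactate libraries and 9 and 9 in the control libraries. The part of background in the choice of regions was not tested.

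**Figure D1:**
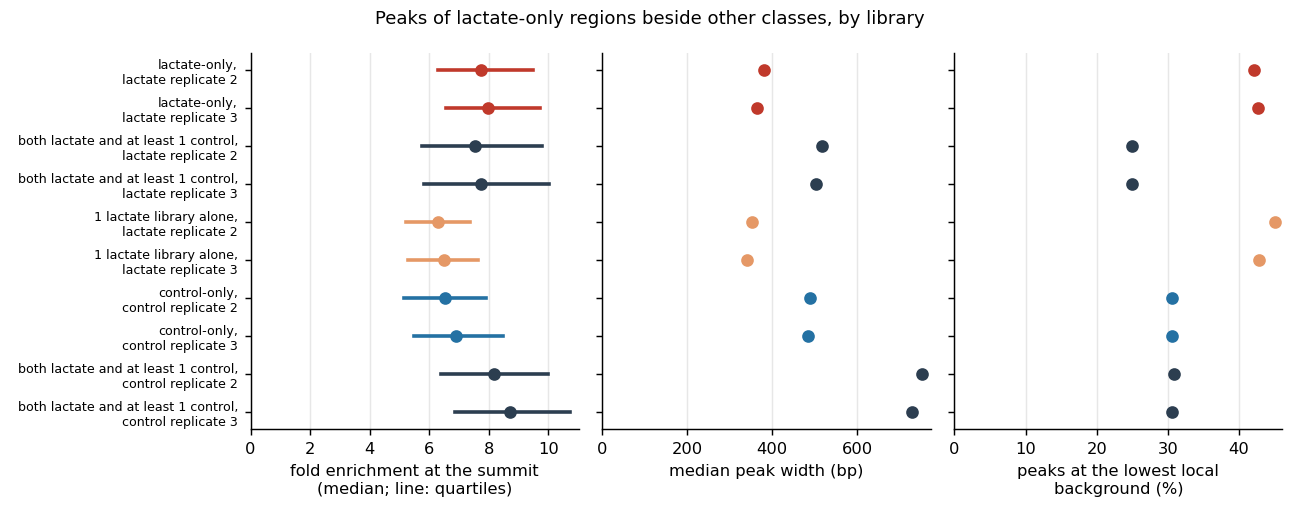
Median fold enrichment with quartiles (left), median peak width in bp (middle) and share of peaks at the lowest local background of the library in percent (right), for each class of region and library. Lactate-only peaks (red) match shared lactate peaks in fold at 7.73 and 7.96, are narrower at 380 and 365 bp, and more often sit on the lowest background.

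The rule joins peaks of the 2 lactate libraries that share bases, so with peaks this narrow their summits lie close together in part by construction. Summits of the 2 libraries lay a median of 24 bp apart in lactate-only regions, and within 100 bp in 1754 regions (91.5%). Among 20513 shared regions with 1 peak in each lactate library the median was 36 bp. Over all shared regions the lactate peaks were wider, at medians of 518 and 503 bp, and the part of width was not tested. In lactate-only regions, the higher of the 2 fold values was a median of 1.19 times the lower, and 1682 regions (87.8%) stayed within 1.5 times. Lactate replicate 3 had the higher value in 1048 regions (54.7%), so neither library dominated.

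At the edge of the rule the regions were weak. The lowest -log10 q among members was 2.01, at a region in LINC01942 in lactate replicate 3 (fold 3.92, 9 reads at the summit) and at a region 186465 bp from TSNARE1 in the same library (fold 3.54, 8 reads). A region inside RGMA, a repulsive guidance molecule gene, followed, with a fold of 1.92 and 1.73 over many reads (75 and 69). Just outside lay 3226 regions where both lactate libraries and 1 control library had a peak. The weakest of these control peaks were inside RTEL1 (-log10 q 2.01, fold 2.17, control replicate 2), CASKIN1 (2.07, fold 2.46, control replicate 3) and DBX1 (2.07, fold 2.50, control replicate 2). Most control peaks of that class were far from the threshold, with a median -log10 q of 9.80. Of the lactate-only regions, 1665 (86.9%) had a -log10 q of at least 5 in both lactate libraries and 695 (36.3%) of at least 10, while 72 had a value under 3 in 1 or both.

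The number of regions depends on how many control peaks are admitted. With the best 37951 peaks of each library, the size of the smallest list, 3715 regions were lactate-only, and these included 1898 of the 1916. Without control replicate 2 or control replicate 3 there were 3335 and 3867, and without lactate replicate 2 or lactate replicate 3 there were 4807 and 5048, since 1 library then stands for its treatment. With at least 20 reads at the summit in both lactate libraries 752 remained.

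Which loci led was the second question. The 20 best regions by the mean rank of their fold in the 2 lactate lists held a fold of 13.0 to 23.7 in lactate replicate 2 and 13.9 to 17.7 in lactate replicate 3. From here on, paired fold values give lactate replicate 2 first. Of the 20, 16 lay inside coding genes and 4 outside them. The highest was in the noncoding gene LOC101928012 (chr7:112621950-112622787), 130887 bp from LSMEM1 and 74382 bp from any control peak. Its fold was 23.7 in lactate replicate 2 and 16.1 in lactate replicate 3, from 54 and 41 reads. The next highest value of the 20 in either library was 18.7.

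Some of the 20 lay in or near genes of lipid metabolism and signalling. A region in LOC105373430, 22642 bp from LPIN1, the gene of a phosphatidate phosphatase that makes diacylglycerol, had a fold of 16.8 and 17.7 (chr2:11850052-11850514). PASK, which encodes a nutrient-sensing kinase, held a region with 16.6 and 14.2. PIK3R5, a regulatory subunit of a phosphoinositide 3-kinase, had 14.9 and 14.7, and the nearest control peak was 24642 bp away. TNIP1, an inhibitor of NF-kB signalling, had 15.4 and 13.9. The 2 lactate libraries gave near-equal values at PIK3R5, while at PASK replicate 2 was the higher.

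Others lay in genes of adhesion, matrix and the cytoskeleton. ITGB3 (integrin beta 3) held a region with a fold of 15.4 and 15.6 at chr17:47295557-47296065. ARAP3, a GTPase-activating protein for Arf, had 14.9 and 16.9. COTL1, an actin-binding protein, had 15.9 and 13.9. SH3PXD2B, an adaptor of podosomes, had 13.1 and 17.0, with both summits at the same base. SMOC2, a secreted matrix protein, had 14.2 and 14.9 in a region of 1131 bp. The cytoskeletal genes ANK1 (an ankyrin; 15.4 and 14.3), MYH10 (a nonmuscle myosin; 13.9 and 14.3) and NAV2 (a neuron navigator that binds microtubules; 16.3 and 15.2) also belonged to the 20.

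Regulators of chromatin and transcription were represented by HDAC4, IWS1 and SOX9. HDAC4, a class IIa histone deacetylase, had a region with a fold of 13.8 and 17.1 only 379 bp from a control peak (chr2:239159606-239160102). A region 11327 bp from IWS1, a transcription elongation factor, had 18.7 and 14.8. A region in SOX9-AS1, 10300 bp from SOX9, the gene of a transcription factor of liver progenitor and bile duct cells, had 13.5 and 16.9 (chr17:72110239-72110719). The rest were GALNT12 (an enzyme of O-glycosylation; 14.4 and 16.0), SHANK2 (a synaptic scaffold; 15.4 and 14.7), FBXW4 (an F-box protein; 13.3 and 16.8) and CCDC33 (13.0 and 17.3).

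**Figure D2:**
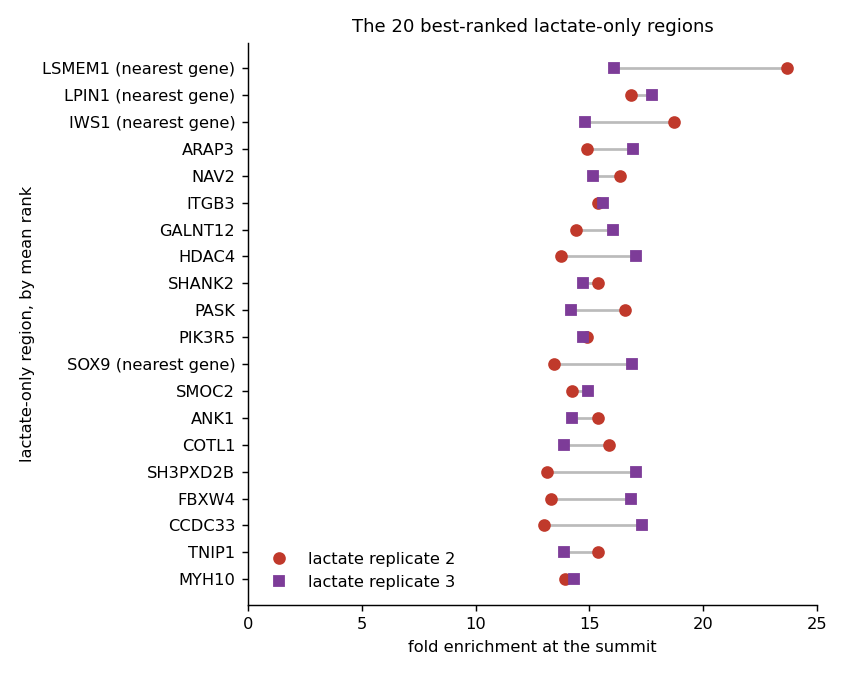
Fold enrichment in lactate replicate 2 (circles) and lactate replicate 3 (squares) for the 20 best-ranked lactate-only regions, named by the gene they lie in or, where marked, the nearest coding gene. The region nearest LSMEM1 reaches 23.7 in replicate 2, and every other value of the 20 lies between 13.0 and 18.7.

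How the regions lay relative to control peaks was the third question. The nearest control peak was a median of 4.36 kb away. It lay within 1 kb of 401 regions (20.9%) and within 10 kb of 1241 (64.8%, exact 95% interval 62.6 to 66.9%). Regions of 1 lactate library alone were within 10 kb of a control peak in 62.3% of cases. Control-only regions were within 10 kb of a lactate peak in 73.6% of cases, at a median of 2.94 kb. The lists differ in number of peaks, which moves such distances, and the difference was not tested.

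A smaller set lay far from any control peak. Distances over 100 kb were found for 183 regions (9.55%), and over 1 Mb for 6. The most isolated, 297696 bp from PTPRD, was 3434784 bp from a control peak, with a fold of 6.77 and 7.87 (chr9:10910699-10911173). A region 400100 bp from BRINP3 was 2145641 bp from one and had 8.91 and 4.05, so the lactate libraries disagreed there by over 2-fold. Then came a region in CLDND1-AS1 (7.38 and 8.75), a region inside OLFM3, which encodes a secreted olfactomedin protein (11.6 and 10.02), and a region in LINC03000 1081771 bp from MAT2B (12.03 and 12.6). The last 2 stood above the median of lactate-only peaks in both libraries, and each is over 1 Mb from a control peak.

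**Figure D3:**
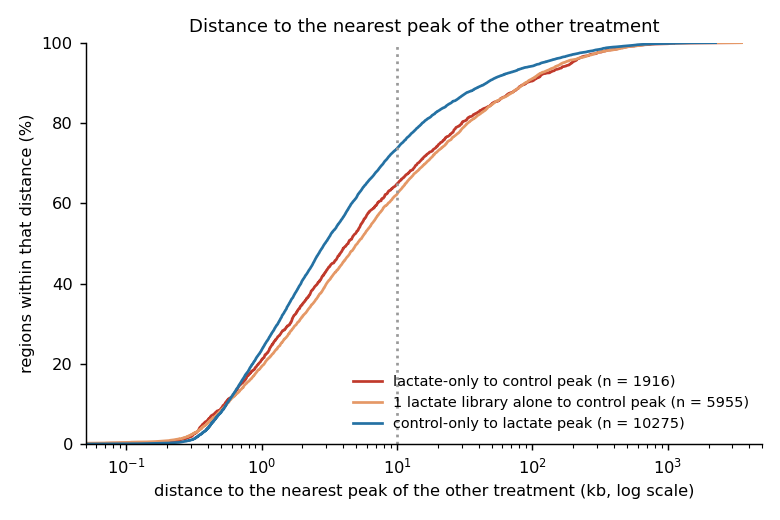
Cumulative share of regions (percent) by distance to the nearest peak of the other treatment (kb, log scale), with a dotted line at 10 kb. Lactate-only regions (red) reach 64.8% at 10 kb, regions of 1 lactate library alone 62.3%, and control-only regions 73.6%.

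Genes were the fourth question. Of the lactate-only regions, 1212 (63.3%, exact 95% interval 61.1 to 65.4%) overlapped the body of a coding gene. A further 170 (8.87%) lay in long noncoding RNA genes alone, and 27.9% in neither. For shared regions the coding share was 67.5%, for control-only regions 66.8% and for regions of 1 lactate library alone 59.7%. Regions more than 100 kb from a coding gene were 222 (11.6%), against 8.03% of shared and 7.79% of control-only regions. The share was 12.7% for regions of 1 lactate library alone and 10.6% for shared regions with 1 control library. Intervals cover counting error only, and regions of a library are not replicates, so these shares are set side by side without a test.

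Host genes of lactate-only regions were long. The 1063 coding genes that held at least 1 had a median length of 89.6 kb, against 24.5 kb over 19126 autosomal coding genes, 38.8 kb for hosts of shared regions and 40.7 kb for hosts of control-only regions. Hosts of regions in 1 lactate library alone were nearly as long, at 70.9 kb, as were those of the 3226 shared regions with 1 control library, at 69.9 kb. Of 303 genes of at least 500 kb, 75 (24.8%) held one. Most hosts carried the mark elsewhere without added lactate, since 804 (75.6%) had peaks from both control libraries, while 38.8% of all autosomal coding genes did. Where the table gives the start of the gene, 33.8% of 976 placements fell in the last of 4 equal parts of the gene and 21.0% in the first. The corresponding shares were 37.2% and 18.8% for shared regions.

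A group of 174 hosts (16.4%) had no control peak anywhere in the gene. The same share over all coding genes was not counted, so 16.4% cannot be called high or low. Peaks from both control libraries were present in 75.6% of hosts but only 38.8% of all autosomal coding genes. Hosts were also longer, at a median of 89.6 against 24.5 kb, and the part of length was not tested. Among the 174, GALNT12 ranked first. BEND6, a BEN-domain gene, followed, with a fold of 13.5 and 13.9 and no control peak within 752027 bp. TDRD15, a Tudor-domain gene, had 14.1 and 12.4. CPNE4, a copine, had 11.1 and 16.5. CDK6, the cyclin D-dependent kinase that drives entry into S phase, had 11.5 and 14.5 at chr7:92608635-92609148, and its nearest control peak was 18080 bp away. These 5 were the best-ranked of the 174 by fold.

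Some genes held several lactate-only regions. DLGAP2, a synaptic scaffold gene of 971 kb, had 8, PTPRN2, a phosphatase-like protein of secretory granules, had 7 and AGAP1, an Arf GTPase-activating protein, had 6. ATP11A, DOCK1, HDAC4, KCNQ1, MGMT, PIP5K1C, RBFOX3 and TRAPPC9 had 4 each. A single region was found in 904 genes and 2 or more in 159. These genes were not free of the mark in the control. DLGAP2 held 93 and 101 control peaks and 77 and 73 lactate peaks, and PTPRN2 held 179 and 175 control peaks and 133 and 132 lactate peaks. DOCK1, an exchange factor for Rac, held 16 and 23 control peaks against 20 and 19 lactate peaks. PIP5K1C, a phosphatidylinositol phosphate kinase of 70.3 kb, held 8 and 15 against 16 and 15, so its control libraries differed from each other.

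No other lactate-only region lay within 100 kb of 1322 of the regions (69.0%). The same share for regions spread evenly over the genome was not counted, so 69.0% cannot be called scattered or grouped. The largest group, 6 regions over 240 kb of chromosome 22 (39488636 to 39728305), spanned CACNA1I (a calcium channel), MGAT3 (a glycosyltransferase) and MIEF1 (a mitochondrial fission factor). Groups of 5 lay around LIMK1, an actin-regulating kinase, and in DLGAP2.

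The widest region, 1497 bp, lay 1418 bp from PDX1, a homeobox gene of the pancreas. Its fold was 3.63 and 6.81, and the summits were 1176 bp apart, so the 2 libraries marked different ends. A region over the start of PAPOLA, the poly(A) polymerase gene, was 1129 bp wide with peaks of 1048 and 1025 bp in the 2 libraries and values of 7.25 and 6.15. A region 88907 bp from TENT4A and one in MYH9, of 1174 and 1096 bp, were wide in 1 library alone.

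Gene starts were a small part of the set. Within 1 kb of the start of a coding gene lay 86 regions (4.49%, exact 95% interval 3.61 to 5.51%), against 3.97% of shared and 6.09% of control-only regions. They touched 98 of 15101 starts (0.649%). Starts were available for 79.0% of autosomal coding genes, with none for chromosome 8 and gaps on other chromosomes. Regions at the missing starts could not be counted, while the shares are taken over all regions of a class. The best-ranked were TDRD15, PCDHGC4, a protocadherin of the gamma cluster (12.5 and 11.9), the shared start of HEATR5B and GPATCH11 (13.0 and 11.3), C1orf52 (8.68 and 13.9) and TBRG1, a growth regulator of the p53 pathway (11.1 and 9.59). The region at HEATR5B ended 174 bp from that gene's start and 320 bp from the start of GPATCH11. The PCDHGC4 region also lies inside many longer genes of the cluster, so it cannot be given to 1 of them. At H4C6 the fold was 9.64 and 10.4 from 19 and 23 reads (chr6:26240353-26240735), and whether reads there could match other histone H4 genes was not tested.

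Chromosomes differed in their share. Chromosome 14 had the highest, at 61 of 1590 regions (3.84%, exact 95% interval 2.95 to 4.90%), followed by chromosome 13 (3.77%), chromosome 18 (3.65%) and chromosome 4 (3.39%). Chromosome 20 had the lowest, at 56 of 3151 (1.78%, 1.35 to 2.302%), after chromosome 21 (1.97%) and chromosome 22 (2.199%). The intervals of chromosomes 14, 13 and 18 lay above the autosomal 2.72%, that of chromosome 20 below it, and those of all other autosomes included it. By the same count control-only regions made up 13.7% of regions on chromosome 14 and 13.996% on chromosome 20. The intervals cover counting error only, treat regions as independent and are not adjusted for the number of chromosomes. The shares were not tested against each other.

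**Figure D4:**
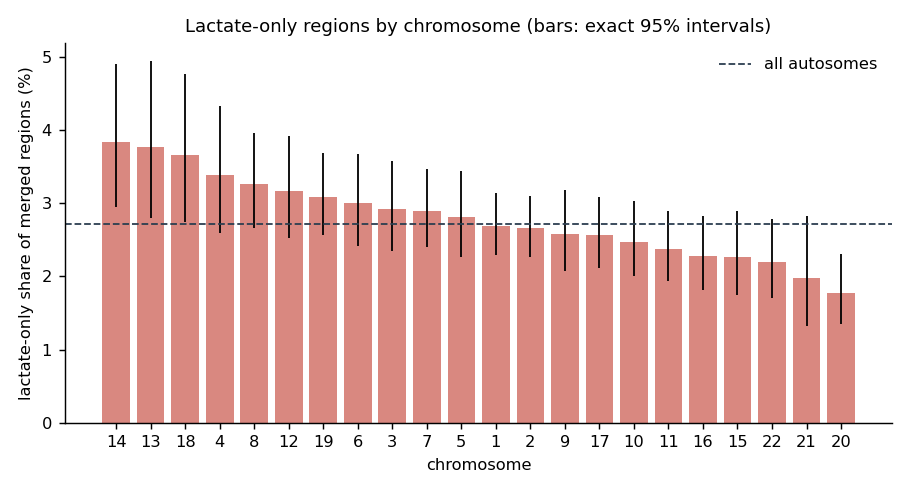
Lactate-only regions as a share of all merged regions (percent) on each autosome, with exact 95% intervals as lines and the share over all autosomes, 2.72%, dashed. Chromosome 14 stands highest at 3.84% and chromosome 20 lowest at 1.78%.

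The last question was whether gene groups linked to lactate, liver or the leading loci held such regions. A gene was counted with a lactate-only region in its body or within 1 kb of it, which held for 1111 of 19126 autosomal coding genes (5.81%). Of 30 glycolysis genes 1 was counted (3.33%). It was HK2, the hexokinase that is raised in liver cancer, with 2 regions, the better one with a fold of 12.5 and 8.30. Of 20 genes of lactate and glucose transport 1 was counted (5.00%), SLC2A1, the glucose transporter GLUT1, with 7.25 and 8.73. With so few genes these shares cannot be told from the background. Of the same lists, 14 and 6 genes (46.7% and 30%) held a region shared by both treatments, against 30.1% of all coding genes.

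Of 30 enzymes that write, remove or feed acyl marks 2 were counted (6.67%). HDAC4 had 4 regions. CREBBP, an acetyltransferase, had 2, with 9.16 and 10.9 at the better one, which lay 14582 bp from a control peak. Of 62 other chromatin regulators 7 were counted (11.3%), among them CHD6 (10.9 and 8.44), KDM4B (11.1 and 8.21), NSD1 (8.39 and 8.83) and TET3 (7.73 and 7.44). CHD6 is a chromatin remodeller, KDM4B a histone demethylase, NSD1 a histone methyltransferase and TET3 an oxidase of methylated DNA. The median gene of that list was 85.2 kb long.

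Lists of liver identity genes were too short to tell their shares from the 5.81% of all coding genes. Of 24 hepatocyte markers 1 was counted (4.17%, exact 95% interval 0.11 to 21.1%), the prothrombin gene F2, with 5.40 and 8.44. Shared regions were present at 4 of the 24 (16.7%, against 30.1% of all coding genes). These were APOC3, ASGR2, CYP2E1 and F2, and not the others, albumin included. The median hepatocyte marker gene was 9.88 kb long, against 24.5 kb over all coding genes, and the part of length was not tested. Of 23 liver transcription factors 1 was counted (4.35%, exact 95% interval 0.11 to 21.9%), GATA4, with 2 regions and 9.64 and 11.7 at the better one. None of 31 autosomal genes of liver cancer and fetal liver was counted, where the exact 95% interval reaches 11.2%. A peak of this mark is not a measure of expression, so these counts do not check the label of the cells.

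Markers of other cell types were counted at 4 of 21 stromal and endothelial genes (19.0%, exact 95% interval 5.45 to 41.9%) and 1 of 19 blood cell genes (5.26%). Over all coding genes the share was 5.81%, which is close to the blood cell share and inside the stromal and endothelial interval. The stromal and endothelial list also held shared regions at 52.4% of genes, against 30.1% of all coding genes. Control-only regions were at 23.8%, against 21.3%. Its median gene was 42.0 kb long, against 24.5 kb, and the part of length was not tested. The counted stromal and endothelial genes were PECAM1 (12.7 and 11.1), CDH5 (14.9 and 8.73), LRAT (10.6 and 7.01) and ACTA2 (2.96 and 4.94), and the blood cell gene was ITGAM (4.38 and 4.86). At LRAT the region was outside the gene, and at ACTA2 it lay within 1 kb of the starts of both ACTA2 and FAS, 215307 bp from any control peak. Of the Wnt list 4 of 58 were counted (6.90%, near the 5.81% of all coding genes). They were ZNRF3 (11.1 and 12.2), TCF7L2 (6.91 and 7.004), WNT10B (6.32 and 6.74) and WNT11 (6.37 and 5.53).

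Genes of the cytoskeleton, neural adhesion and synaptic receptors were counted more often than all coding genes (5.81%), and their genes are longer. Among 61 genes of actin, myosin and microtubules 16 were counted (26.2%), led by NAV2, ANK1, MYH10 and NDEL1, the last of which shares its region with MYH10. Of 57 neural adhesion genes 15 were counted (26.3%), led by CNTN4 (14.9 and 12.2), NTM (14.4 and 9.16), CSMD1 (10.6 and 10.4) and CNTNAP2 (9.16 and 11.7). Of 38 glutamate and GABA receptor genes 11 were counted (28.9%), among them GRID1 (7.73 and 10.4) and GRIK1 (9.08 and 8.30). The region in CNTNAP2 was 382298 bp from a control peak and the one in CSMD1 203684 bp, while that in GRID1 was 1172 bp from one. The 7 lowest-ranked receptor genes had 4.34 to 8.21 and 4.68 to 7.87, so most of their peaks were below the medians of lactate-only peaks.

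The median gene in these 3 lists was 152, 419 and 226 kb long, in the order given. Per Mb of gene, all coding genes held 1.07 lactate-only regions, the actin, myosin and microtubule list 1.76, the receptor list 1.03 and the neural adhesion list 0.495. Some lists of shorter genes were denser, with 3.06 for stromal and endothelial markers, 2.35 for acyl-mark enzymes, 2.04 for glycolysis, 1.78 for liver transcription factors and 1.699 for hepatocyte markers, though each rests on few genes. The neural adhesion list, with a high share of genes, thus had a low density. The cytoskeleton, adhesion and receptor lists held shared regions at 39, 34 and 17 genes (63.9%, 59.6% and 44.7%), against 30.1% of all coding genes. They held control-only regions at 45.9%, 47.4% and 31.6% of genes, against 21.3%. Their high shares are thus not particular to lactate-only regions. The part of gene length in the list counts was not tested beyond this density.

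**Figure D5:**
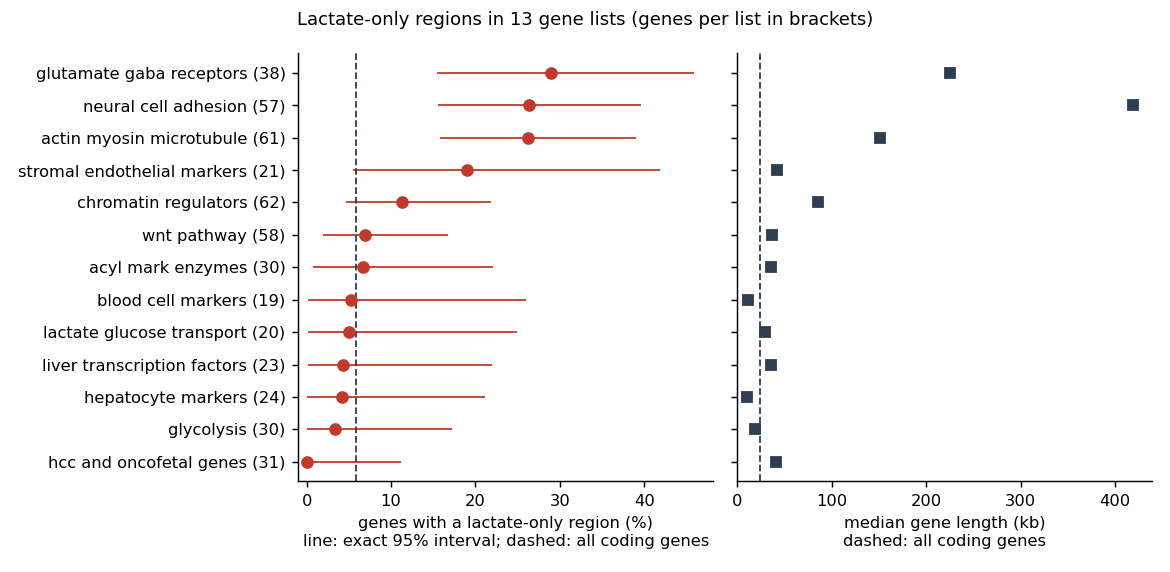
Share of genes with a lactate-only region in the gene or within 1 kb (percent, left, lines are exact 95% intervals) and median gene length in kb (right) for 13 gene lists, with dashed lines for all autosomal coding genes (5.81% and 24.5 kb). The receptor, neural adhesion and cytoskeletal lists have shares of 28.9%, 26.3% and 26.2%, and the intervals of the other lists shown include 5.81%. The lists were chosen with earlier results of these data known, so the intervals are no test.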

How the data were processed

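H4K5la was mapped by ChIP-seq, and the authors deposited 1 peak list per library for 2 control and 2 lactate libraries. Per the submitters' processing notes, tools included Trimmomatic 0.38, Bowtie2 2.3.4.2, Picard 2.18.11 and MACS2 2.2.6, with the build hg38. The deposited columns give position, an integer score (not used), the fold enrichment (a ratio) and the -log10 of the p-value and q-value, whose lowest deposited -log10 q was 2.00 to 2.02.

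Peaks were read with pandas 2.3.3, numpy 2.4.6 and scipy 1.17.1 under Python 3.11.15, and drawn with matplotlib 3.10.9. Reads at summits were recovered from fold and -log10 p by searching for a library scaling factor, with whole reads within 0.001 for 100% of peaks in each library. For 99.6 to 99.9% of peaks only 1 number of reads came within that tolerance. Within a treatment, relative depth was 0.940 for control replicate 3 against 2 and 1.13 for lactate replicate 3 against 2. Scripts were tested on simulated data. Genes and starts came from RefSeq tables of GRCh38.p14, with a start for 79.0% of autosomal coding genes. Intervals are exact Clopper-Pearson.

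The regions and gene lists were chosen with earlier results of these data known. No test between treatments was run, since the rule fixes which libraries hold a peak. Named were the 20 best regions by mean rank of fold, the top 5 at gene starts, far from control peaks and by width, up to 4 genes per list (1 list and some genes of another are not reported here), genes with the most regions, and regions at the threshold. The 5 best over 100 kb from coding genes were named too. H4C6, host genes without a control peak and miRNA hairpins were added after values were seen.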

Additional observations from a re-analysis of the deposited data

How the results depend on the processing

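No paired analysis was possible because no test was fitted, the results being counts and medians of regions chosen by the presence of peaks in all libraries. With 37951 peaks in each library, 3715 regions were lactate-only, 65.8% over a coding gene and 5.71% at a start, with a median width of 399.5 bp (372.5 bp as the mean of the 2 libraries in the full lists) and 1983 genes. Under a reciprocal overlap of 50%, in which a control peak may overlap in part, the values were 5383 regions, 68.7%, 3.31%, 426.5 bp, 87.8% within 10 kb of a control peak and 2105 genes. Kept at least 10 kb from control peaks, 675 regions were left, 55.9% over a coding gene and 7.41% at a start, with 395 genes. Joining peaks within 1 kb gave 55.5% within 10 kb. Windows of 3 kb gave 6.47% at a start, and, in settings chosen after seeing the data, both gene ends gave 8.66% and at least 20 reads left 752 regions. Leaving out each library gave 3335 to 5048 regions, 1725 to 2353 genes, 60.1 to 64.6% over a coding gene, 4.22 to 4.89% at a start, 349 to 382.5 bp and 62.8 to 64.4% within 10 kb. A -log10 q of at least 5 in all lists gave 2024 regions, 1665 of them among the 1916. Of 68 values under an alternative, 39 stayed within 1.5 times for counts, within the interval for shares or within 1 SD (10.6 bp) for width, and the others are those given. By construction, no share within 10 kb exists for regions kept at least 10 kb away. Low reads at summits limit the weakest regions. The cause of each shift was not tested.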

Other observations

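The X chromosome, left out of the rule, held 37 regions of the lactate-only kind among 680 merged regions (5.44%), against 2.72% on the autosomes. The best-ranked lactate-only regions more than 100 kb from a coding gene, after the one in LOC101928012, lay nearest to ACKR3 (fold 12.03 and 16.9), MKI67 (12.5 and 14.3), FOXL1 (12.5 and 13.5) and TCERG1L (13.5 and 12.2). ACKR3 is a chemokine scavenger receptor gene, MKI67 the gene of a proliferation marker and FOXL1 a forkhead factor gene. The distances to these genes were 240843, 121135, 206018 and 122274 bp.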
